A study of Mus musculus with 9 samples.

Results

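This is an account of 9 genes for neurotrophic factors and their receptors among 22322 genes of a mouse expression table. The factors were Serpinf1 (which encodes pigment epithelium-derived factor, PEDF), Bdnf, Gdnf, Fgf2, Mdk and Ptn, and the receptors were Ntrk2, Ntrk3 and Ngfr. The 9 genes were chosen by symbol for their relevance to the survival of retinal ganglion cells (RGCs). Serpinf1 was chosen for its difference between aging and normal RGCs, so its values are given as a description, with no test. RNA of cultured RGCs was sequenced in 9 libraries, 3 from normal RGCs, 3 from aging RGCs and 3 from aging RGCs + USCs medium. All cultures carried the WT genotype label and came from RGCs bought from a supplier, grown in high glucose medium with serum and passaged with trypsin. Aging RGCs had been treated with D-galactose at 30 mg/mL, a sugar used to bring on senescence-like changes. The aging RGCs + USCs medium (hereafter the USCs medium group) received D-galactose first and afterwards grew in medium in which USCs, stem cells cultured from human urine, had been kept. The effect of changing the medium and that of its conditioning cannot be told apart in this design. The study asked whether that medium changed the state of aging RGCs, and the comparisons below ask how trophic genes differed between the 3 groups. The replicates were wells, so p-values measure only the spread between wells, which may be technical.

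Neurotrophic factors are secreted proteins that keep neurons alive and shape their axons and synapses. Retinal ganglion cells, whose axons form the optic nerve, respond to BDNF through the receptor kinase TrkB (the product of Ntrk2), while NT-3 acts through TrkC (Ntrk3) and all neurotrophins also bind the receptor p75NTR (Ngfr). GDNF signals through a GFRα co-receptor with the kinase RET, FGF2 signals through FGF receptors, and midkine (Mdk) and pleiotrophin (Ptn) are heparin-binding relatives with several receptors. PEDF, a serpin without protease inhibitor activity, is known from the retinal pigment epithelium as a factor that protects retinal neurons and restrains vessel growth.

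The label of the cells was checked against 16 ganglion cell markers. Atoh7 and Pou4f2, which act in ganglion cell specification, and Pou4f3 were at 0 in all 9 libraries. In every library 10 of the 16 markers were under 1 CPM (a count scaled to library size). Thy1 averaged 0.0326 CPM in normal RGCs and was at 0 in the other libraries, whereas Rbpms, Nefl and Isl1 were present at 61.2, 63.6 and 18.9 CPM in normal RGCs. Of 8 epithelial markers, 3 keratin genes were abundant, with means in normal, aging and USCs medium cultures of 410.0, 559.8 and 714.3 CPM for Krt8, 320.5, 252.1 and 281.2 CPM for Krt18 and 364.7, 274.4 and 258.1 CPM for Krt19, so that they did not move one way. Krt5 was at 0, and Krt14, Cdh1 and Cldn4 were under 1 CPM in every library. The name RGCs is used here as the labels give it. Library totals ranged from 18189610 to 22342283 counts, at which 3 counts, the limit that a count of 0 allows, correspond to 0.134 to 0.165 CPM. Limits of this kind cover counting error only.

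A pair of the factors, Serpinf1 and Ptn, had the largest differences between groups among the 4 genes with enough counts to be tested, and the sequence before each start site is shown for that reason. Each is the reference sequence (RefSeq, GRCm38.p6) upstream of the outermost annotated start, on the minus strand, at chr11:75422702-75422873 for Serpinf1 and chr6:36810221-36810429 for Ptn. Capitals mark matches to a CCAAT box.
Serpinf1: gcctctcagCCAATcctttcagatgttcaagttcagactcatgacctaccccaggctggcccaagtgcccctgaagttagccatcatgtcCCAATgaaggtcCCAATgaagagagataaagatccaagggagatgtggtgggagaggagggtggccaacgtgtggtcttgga
Ptn: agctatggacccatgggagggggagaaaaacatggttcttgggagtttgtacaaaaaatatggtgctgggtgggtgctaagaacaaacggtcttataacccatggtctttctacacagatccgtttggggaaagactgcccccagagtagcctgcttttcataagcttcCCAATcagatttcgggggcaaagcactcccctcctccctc
Both strands were searched for 5 motifs, namely the TATA box TATAAA, the CCAAT box with letters CCAAT, the GC box GGGCGG, the AP-1 motif TGANTCA and the STAT motif TTCNNNGAA. The Serpinf1 window of 172 bases held 3 CCAAT matches and none of the other 4 motifs. For comparison, 32851 promoter windows were cut to the same length from their upstream end. These cuts were not placed by the outermost start of each gene, so the comparison is not like for like. Of the cut windows, 23.6% held CCAAT, 8.13% TATAAA, 19.8% GGGCGG, 4.72% the AP-1 motif and 5.04% the STAT motif. In the Ptn window of 209 bases there was 1 CCAAT match and no other, against 29.8% of windows with CCAAT, 9.51% with TATAAA, 26.5% with GGGCGG, 5.82% with the AP-1 motif and 6% with the STAT motif. Bases G and C made up 52.9% of the Serpinf1 window, close to the median of 51.2% over windows of that length, and 49.8% of the Ptn window, whose median was 51.7%. A match is a match of letters and not a measured binding site. RefSeq windows matched 7 of the 9 genes, with 7 windows for Bdnf and 2 for Gdnf, and none was found under the symbols Ntrk3 and Mdk.

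The 9 genes spanned a wide range of abundance. On the FPKM scale, in which fragment counts are divided by gene length and by depth so that genes can be compared, Serpinf1 was the most abundant, with a mean over 9 libraries of 15 FPKM, higher than 77.5% of the genes in the table. Bdnf followed at 3.76 FPKM and Ptn at 2.65 FPKM, above 59.6% and 57% of genes. Fgf2 lay at 0.378 FPKM, and Gdnf, Mdk, Ngfr and Ntrk3 lay at 0.08, 0.0567, 0.0378 and 0.0178 FPKM. Ntrk2 was at 0 in all 9 libraries. Only Serpinf1, Bdnf, Ptn and Fgf2 passed the filter on low counts and entered the test, and 45.6% of all genes in the table did not.

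**Figure D1:**
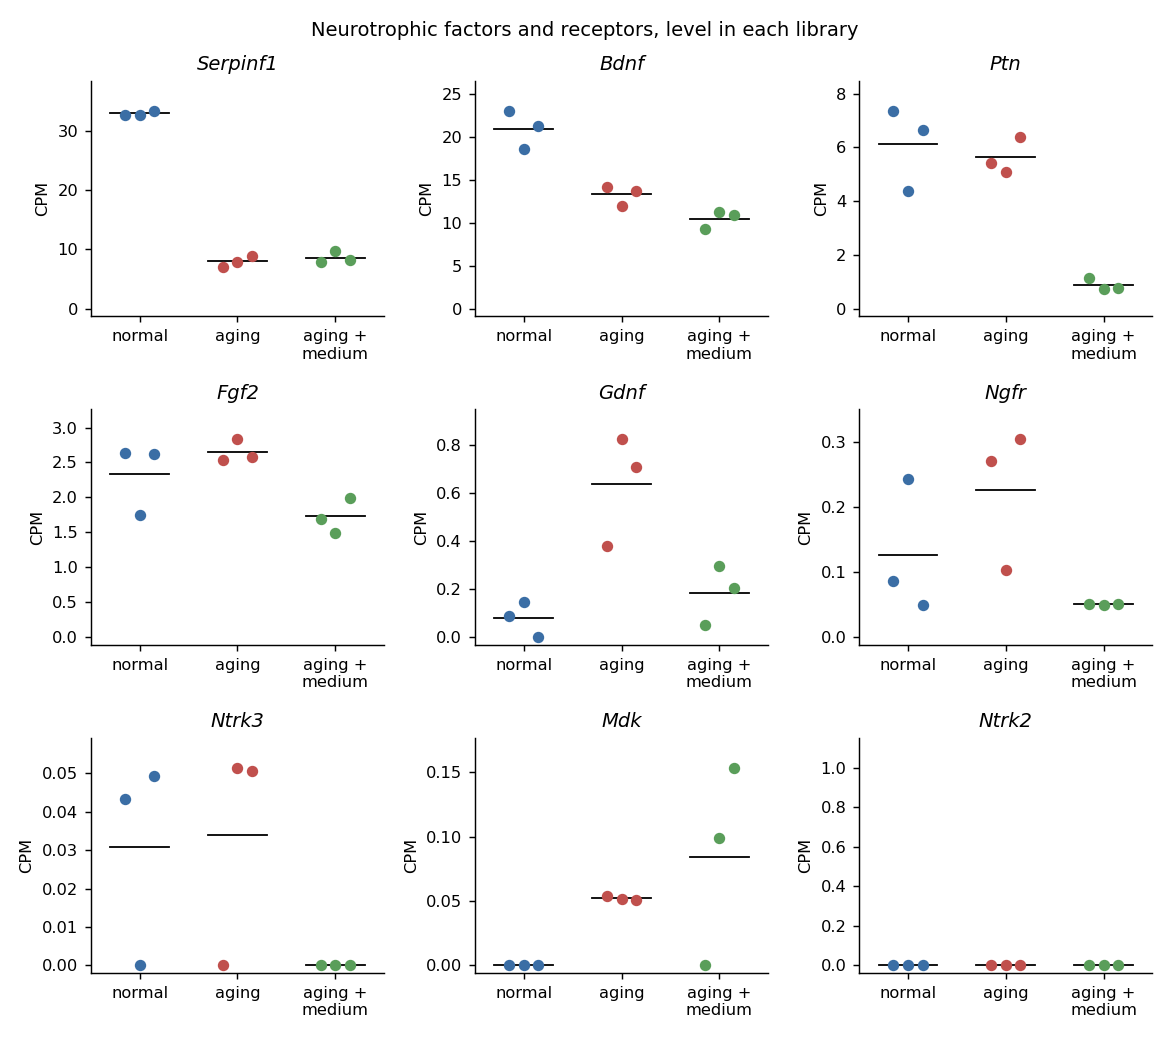
Each panel plots 1 gene, with the level in CPM on the y axis, a point for each of the 3 libraries of a group and a line at the group mean; the y axes differ between panels. Serpinf1 is near 33 CPM in all normal libraries and under 10 CPM in the other 6 libraries, Ptn is low only in the 3 USCs medium libraries, and Ntrk2 is at 0 throughout.

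In the whole table, 12145 genes were tested with edgeR's quasi-likelihood test, and a gene passed at a Benjamini-Hochberg adjusted p under 0.05. A differentially expressed gene (DEG) also had a log2 fold change of at least 1 in either direction. Between aging and normal RGCs, 23.6% of genes passed as higher and 23.0% as lower, 2.65% were DEGs, and 53.0% of genes had no overlap between the libraries of one group and the other. Between the USCs medium group and aging RGCs these shares were 27.1%, 26.0%, 5.44% and 59.8%. Between the USCs medium group and normal RGCs they were 30.6%, 29.9%, 6.72% and 63.8%. Of the 4 genes tested, 2 passed between aging and normal RGCs, 3 between the USCs medium group and aging RGCs and 3 between the USCs medium group and normal RGCs, all as lower in the group named first. Serpinf1, chosen for this difference, is 1 of the 2 in the first and 1 of the 3 in the last. Every group enters 2 of the comparisons, so the comparisons share libraries.

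Serpinf1 (ENSMUSG00000000753) lies on chromosome 11 of GRCm38 from 75409769 to 75422701 on the minus strand, a protein-coding gene with 9 exon blocks that share no bases with exons of another gene. Its counts were 757, 676 and 678 in normal RGCs, 130, 154 and 177 in aging RGCs, and 152, 196 and 161 in the USCs medium group. Scaled to library size these were 32.8, 32.8 and 33.5 CPM, then 7.03, 7.93 and 8.96 CPM, then 7.81, 9.73 and 8.25 CPM. All 3 normal libraries stood above all 6 libraries treated with D-galactose, and the treated groups overlapped. The mean was 33.0 ± 0.392 CPM (SD, n = 3) in normal RGCs, 7.98 ± 0.967 CPM in aging RGCs and 8.59 ± 1.01 CPM in the USCs medium group. Aging RGCs were thus 4.13-fold lower than normal RGCs, a log2 fold change of -2.05 ± 0.0928 (SE). As Serpinf1 was chosen for this difference, its rank, with 19 of the 12145 genes tested more negative, is a description only. The USCs medium group was 3.83-fold lower than normal RGCs, with a log2 fold change of -1.94 ± 0.0913.

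Against aging RGCs, the log2 fold change of Serpinf1 in the USCs medium group was 0.11 ± 0.110 (SE), with a 95% interval from -0.12 to 0.33. On the deposited FPKM, which the authors scaled to length and depth, the means were 30.3 ± 3.32, 7.62 ± 1.24 and 7.11 ± 0.460 (SD, n = 3), so the small difference between the treated groups turned its direction. In bulk RNA, fewer cells of a type and less RNA per cell cannot be told apart, for this gene and for those below.

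Markers of other cell types moved with the groups too, and their part in the level of Serpinf1 was not tested. Of 9 markers of retinal pigment epithelium, the tissue known for PEDF, 8 were under 1 CPM in every library, with Dct, Lrat and Ttr at 0, and only Mitf was above. The summed level of the 16 ganglion cell markers ranged over 143.5 to 154.6 CPM in the normal libraries, 102.4 to 105 CPM in the aging libraries and 96.5 to 103.6 CPM in the USCs medium libraries. Its members moved in opposite directions between the treated groups: Nefl fell from 38.4 to 17.3 CPM (edgeR adjusted p 3.99e-13) and Tubb3 rose from 2.60 to 21.2 CPM (adjusted p 3.07e-17), above its 4.46 CPM in normal RGCs. Some exonic bases of Nefl are shared with Nefm on the other strand. The 12 macrophage markers summed to 71.4 to 82.9 CPM in the normal libraries, 57.3 to 63.3 CPM in the aging libraries, and 47.7, 45.2 and 72.1 CPM in USCs medium replicates 1 to 3, and 5 of them were under 1 CPM in all libraries. Without Cd68, their most abundant gene, the sums were 31.4 to 46.8 CPM, 14.9 to 22.9 CPM and 17.3, 16.6 and 37.3 CPM. Cd68 and Cd14 did not pass between aging and normal RGCs (edgeR adjusted p 0.237 and 0.953), while the other macrophage markers tested passed as lower. C1qa, C1qb and C1qc, under 1 CPM in all libraries, were at 0 in aging RGCs and in USCs medium replicates 1 and 2. The 10 mesenchymal markers, led by Col3a1, summed to 434.9 to 515.4 CPM in the normal libraries, 401.5 to 412.9 CPM in the aging libraries and 247.7 to 251.5 CPM in the USCs medium group. Without Col3a1 these sums were 25.8 to 29.7 CPM, 16.3 to 17.6 CPM and 13.6 to 15.4 CPM. Postn was at 0, and 6 of the 10 were under 1 CPM in all libraries.

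**Figure D2:**
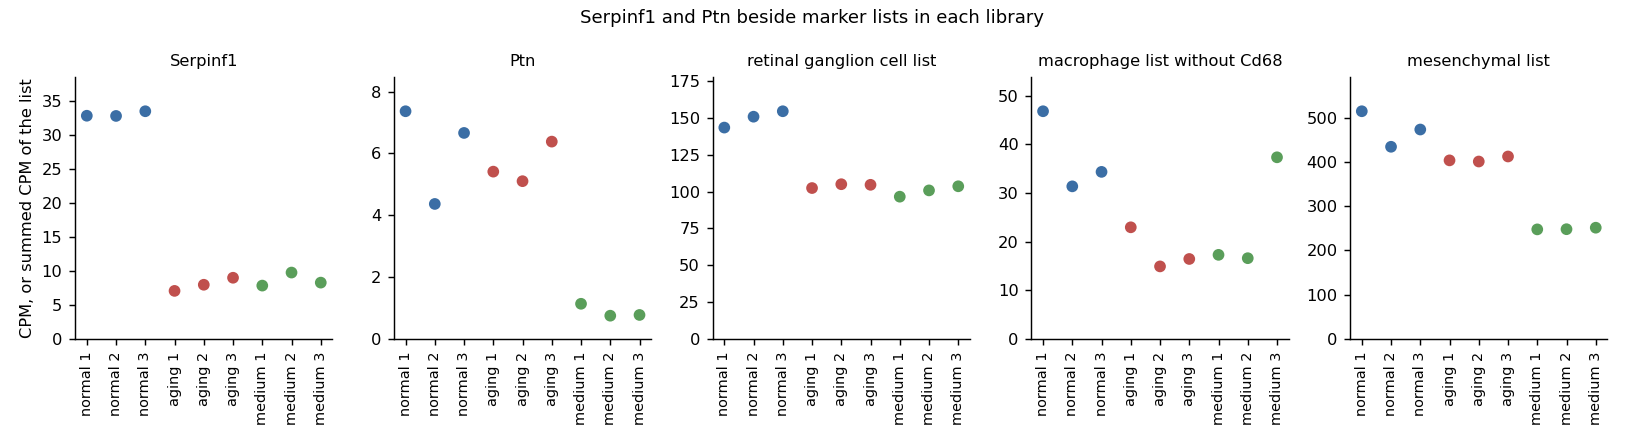
Levels in each of the 9 libraries, in CPM, of Serpinf1 and Ptn, and of the summed markers of retinal ganglion cells, macrophages without Cd68, and mesenchymal cells; a point is a library and the y axes start at 0 and differ. Serpinf1 and the ganglion cell list are high in the normal libraries, and Ptn and the mesenchymal list, most of which is Col3a1, are lowest in the USCs medium libraries. The macrophage list is high in the normal libraries and in USCs medium replicate 3.

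The genes whose pattern over the 9 libraries was most like that of Serpinf1 among 10809 genes were Dusp6, Ccpg1, Bicral, Cdr2l and Pak1, with Pearson correlations of log2 CPM of 0.996, 0.995, 0.991, 0.991 and 0.989. These are descriptions, over 9 libraries that fall into 3 groups. Dusp6, a phosphatase that acts on ERK kinases, averaged 126.9 ± 2.83 CPM in the normal and 93.4 ± 3.73 CPM in the aging libraries (SD, n = 3). Among the genes next to Serpinf1 on chromosome 11, Smyd4 was higher in aging than in normal RGCs (log2 fold change 0.26 ± 0.0603 SE, edgeR adjusted p 0.000637), as was Wdr81 (0.58 ± 0.0529 SE, adjusted p 4.89e-10). Serpinf2, the neighbouring serpin gene for the plasmin inhibitor α2-antiplasmin, had at most 3 counts in a library.

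PEDF has several proposed receptors, and the 5 looked at were Pnpla2, Plxdc1, Plxdc2, Rpsa and Lrp6. Rpsa, which also encodes a protein of the small ribosomal subunit, was the most abundant at a mean of 734.6 FPKM, and it was higher in the USCs medium group than in aging RGCs (log2 fold change 0.22, edgeR adjusted p 6.43e-07). Pnpla2, a triglyceride lipase, was at 25.6, 25.3 and 19.1 FPKM in normal, aging and USCs medium cultures, and fell by 0.26 on the log2 scale between the last pair (edgeR adjusted p 0.000434). Lrp6, a Wnt co-receptor, was lower in aging RGCs (-0.15, adjusted p 0.000703) and again in the USCs medium group (-0.24, adjusted p 1.26e-06). Plxdc1 had 1 to 15 counts in a library and Plxdc2 had at most 2, and neither was tested. Of the 3 tested, 1 passed as lower between aging and normal RGCs, and 1 passed as higher and 2 as lower between the USCs medium group and aging RGCs. Over all genes, the shares higher and lower were 23.6% and 23.0%, and 27.1% and 26.0%.

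Bdnf (ENSMUSG00000048482), the main trophic factor acting through TrkB, lies on chromosome 2 from 109674700 to 109727007 on the plus strand. It fell at each step. Its levels were 23.0, 18.6 and 21.2 CPM in normal RGCs, 14.2, 11.95 and 13.7 CPM in aging RGCs, and 9.20, 11.3 and 10.9 CPM in the USCs medium group, and no group overlapped another. The means were 20.9 ± 2.23, 13.3 ± 1.17 and 10.4 ± 1.10 CPM (SD, n = 3). Aging RGCs were 1.58-fold lower than normal RGCs (log2 fold change -0.66 ± 0.0970 SE, edgeR adjusted p 2.45e-06). The USCs medium group was 1.27-fold lower than aging RGCs (-0.35 ± 0.106 SE, adjusted p 0.00752), and without its replicate 1 the difference did not pass (-0.26, adjusted p 0.0663). Against normal RGCs the USCs medium group had a log2 fold change of -1.003 ± 0.0999 (edgeR adjusted p 1.12e-09). The deposited value is 1 per gene, so the transcripts from the several Bdnf start sites were not told apart, and some of its exonic bases are shared with an RNA on the other strand, Gm45346. Since it is not stated whether counting used strand, reads of the pair cannot be told apart there.

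The 3 neurotrophin receptors among the 9 genes, of which Ntrk2 and Ngfr encode receptors for BDNF, were nearly absent from the counts. Ntrk2, on chromosome 13 from 58806569 to 59133970, had 0 counts in all 9 libraries, which allows up to 0.165 CPM in the shallowest. Ntrk3, on chromosome 7 from 78175959 to 78738012, had 1, 0 and 1 counts in normal RGCs, 0, 1 and 1 in aging RGCs and 0 in every USCs medium library. Ngfr, on chromosome 11 from 95568818 to 95587735, had 2, 5 and 1, then 5, 2 and 6, then 1, 1 and 1 counts. Ngfr was lower in the USCs medium group than in aging RGCs in all 3 libraries, but with an exact two-sided permutation p of 0.1, the smallest that 3 against 3 libraries can give. The differences of Ntrk3 had exact permutation p-values of 0.4 to 0.6. As these exact tests could not reach 0.05 with 3 libraries a group, the edgeR fit without the count filter is given too. There Ngfr had adjusted p-values of 0.564 between aging and normal RGCs, 0.148 between the USCs medium group and aging RGCs and 0.457 between the USCs medium group and normal RGCs, and those of Ntrk3 were 0.989, 0.374 and 0.375.

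Among other genes of the neurotrophin system, Ntf3, for NT-3, was at 0 in all libraries, while several were measured more deeply. Sort1, for sortilin, a sorting receptor that binds proneurotrophins, fell with Bdnf at each step, from 13.8 ± 0.296 to 8.57 ± 1.02 and 5.36 ± 0.244 CPM (SD, n = 3). Its log2 fold changes were -0.69 (edgeR adjusted p 6.98e-06) between aging and normal RGCs and -0.68 (adjusted p 4.17e-05) between the USCs medium group and aging RGCs. Sorcs2, a relative of sortilin, had 26, 13 and 10 counts in normal RGCs, 9, 7 and 6 in aging RGCs and 0, 1 and 2 in the USCs medium group, and passed between the last pair (adjusted p 0.00681). Furin, a protease that cleaves proneurotrophins, was lower in aging than in normal RGCs (-0.21, edgeR adjusted p 0.000617).

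Downstream of the receptors, 23 of 24 adaptor genes were tested. Of these, 1 passed as higher and 7 as lower between aging and normal RGCs (34.8% in all). Between the USCs medium group and aging RGCs, 6 passed as higher and 9 as lower (65.2%). The shares over all genes are given with the pathway counts below. Bex3, which encodes a p75NTR-associated protein, was the most abundant at 120.3 FPKM and rose by 0.30 on the log2 scale in the USCs medium group (edgeR adjusted p 7.71e-07). Irs1, an adaptor of insulin and growth factor receptors, was higher in aging than in normal RGCs (0.55, adjusted p 0.000291) and lower in the USCs medium group than in aging RGCs (-1.11, adjusted p 1.49e-08), with exonic bases shared with Gm9747 on the other strand. The deposited annotation places 124 genes in the KEGG neurotrophin signaling pathway, of which 107 were tested. Between aging and normal RGCs, 21 passed as higher and 33 as lower (50.5% in all), and the split was 14 and 34 on log2(FPKM + 1). For the USCs medium group against aging RGCs, 32 passed as higher and 37 as lower (64.5%), and without TMM scaling 23 and 46. Against normal RGCs, 28 of the pathway passed as higher and 44 as lower (67.3%), and without TMM scaling 15 and 54. Over all genes in the main fit, the shares higher and lower in these comparisons were 23.6% and 23.0%, 27.1% and 26.0%, and 30.6% and 29.9%. Without TMM scaling all genes also leaned to lower, and their split is given with the trophic lists below. Their median log2 fold change was then -0.085 for the USCs medium group against aging RGCs and -0.113 against normal RGCs. On log2(FPKM + 1) the median over all genes between aging and normal RGCs was -0.0152. The median log2 fold changes of the pathway were -0.03, -0.02 and -0.06, beside 0.00185, -0.00666 and -0.0127 over all genes tested.

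Named after their values were seen, the 8 pathway genes that were DEGs between the USCs medium group and aging RGCs were Matk, Nfkbie, Camk2a, Pik3r3, Shc4, Irs1 and Bcl2, all lower, and Irak3, which was higher. They were 8 of the 107 pathway genes tested, beside 5.44% of all genes that were DEGs in this comparison. Camk2a, for a calcium-dependent kinase, was at 3.41, 7.28 and 1.32 CPM in normal, aging and USCs medium cultures, higher in aging than in normal RGCs (log2 fold change 1.09, edgeR adjusted p 6.45e-06) and lower in the USCs medium group than in aging RGCs (-2.46, adjusted p 4.6e-11). Shc4, an adaptor of receptor tyrosine kinases, was at 18.2, 18.1 and 6.36 CPM, with log2 fold changes of 0.000228 (adjusted p 0.998) and -1.51 (adjusted p 1.99e-12). Bcl2, an inhibitor of apoptosis, was at 7.51, 9.52 and 4.02 CPM, and fell by 1.24 on the log2 scale between the USCs medium group and aging RGCs (edgeR adjusted p 5.02e-08).

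Ptn (ENSMUSG00000029838), for pleiotrophin, lies on chromosome 6 from 36714929 to 36810220 on the minus strand, with 5 exon blocks free of overlap. Unlike Serpinf1, it was low in the USCs medium group alone. Its counts were 170, 90 and 135 in normal RGCs, 100, 99 and 126 in aging RGCs, and 22, 15 and 15 in the USCs medium group. In CPM these were 7.36, 4.36 and 6.66, then 5.41, 5.10 and 6.38, then 1.13, 0.744 and 0.768. Normal and aging RGCs overlapped, and every USCs medium library stood below the other 6. The means were 6.13 ± 1.57, 5.63 ± 0.668 and 0.881 ± 0.216 CPM (SD, n = 3). The USCs medium group was 6.37-fold lower than aging RGCs (log2 fold change -2.67 ± 0.243 SE, edgeR adjusted p 3.27e-10), and 38 of the 12145 genes tested had a more negative value. Against normal RGCs it was 6.95-fold lower (-2.80 ± 0.238 SE, adjusted p 4.89e-11). Between aging and normal RGCs the log2 fold change was -0.13 ± 0.177 (adjusted p 0.593), with a 95% interval from -0.49 to 0.24, and it was 0.03 without normal replicate 1. Among the mesenchymal markers, Col3a1 and Pdgfrb were also lower in the USCs medium group than in aging RGCs (edgeR adjusted p 2.59e-14 and 4.24e-05), Col1a1 and Pdgfra did not pass there (adjusted p 0.284 and 0.219), and the part of such cells in the level of Ptn was not tested.

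Mdk (ENSMUSG00000027239), for midkine, lies on chromosome 2 from 91929805 to 91932297. All normal libraries had 0 counts, the aging libraries had 1 each, and the USCs medium libraries had 0, 2 and 3. The exact two-sided permutation p was 0.1, the smallest possible, between aging and normal RGCs, 0.7 between the USCs medium group and aging RGCs and 0.4 between the USCs medium group and normal RGCs. Without the count filter, edgeR gave adjusted p-values of 0.254, 0.766 and 0.106. Of 13 genes for proposed receptors of midkine and pleiotrophin, 10 were tested. Ptprz1, the receptor phosphatase for pleiotrophin, was at 0 in all libraries, Alk had at most 4 counts and Ltk at most 3. Ncl, for nucleolin, a nucleolar protein that also binds midkine at the cell surface, was the most abundant at 207.9 FPKM, and rose by 0.38 on the log2 scale in aging RGCs (edgeR adjusted p 1.49e-10) and by a further 0.37 in the USCs medium group (adjusted p 1.55e-10). Lrp1, a large endocytic receptor, fell by 0.25 (adjusted p 1.71e-05) and then by 0.52 (adjusted p 3.95e-11). Itga4 and Itgb1, integrin subunits, were lower in the USCs medium group than in normal RGCs by 1.09 (adjusted p 0.00744) and 1.56 (adjusted p 0.0148) on the log2 scale, at no more than 58 and 38 counts a library. Itgb1 did not pass with DESeq2 (adjusted p 0.12) or in limma on FPKM, nor without normal replicate 2 or USCs medium replicates 1 or 2 (adjusted p 0.0785, 0.0503 and 0.102).

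Fgf2 (ENSMUSG00000037225), for basic fibroblast growth factor, lies on chromosome 3 from 37348346 to 37410108 on the plus strand. Its estimated counts were 60.93, 35.8 and 53.45 in normal RGCs, 47.43, 54.83 and 51.39 in aging RGCs, and 33.16, 30.18 and 39.11 in the USCs medium group. The CPM were 2.64, 1.75 and 2.62, then 2.54, 2.83 and 2.58, then 1.70, 1.49 and 2.00. All USCs medium libraries stood below all aging libraries, while normal replicate 2 lay among the USCs medium libraries. The means were 2.33 ± 0.511, 2.65 ± 0.158 and 1.73 ± 0.256 CPM (SD, n = 3). Between the USCs medium group and aging RGCs the log2 fold change was -0.62 ± 0.242 SE (edgeR adjusted p 0.0329). That difference did not pass with DESeq2 (adjusted p 0.0536) or in 5 of the 9 fits that left out 1 library, with the adjusted p reaching 0.125 without USCs medium replicate 2. Between aging and normal RGCs it was 0.18 ± 0.230 SE (adjusted p 0.55), with a 95% interval from -0.29 to 0.65. Some exonic bases of Fgf2 are shared with Nudt6 on the other strand and with Gm43439 on the same strand, so its level is uncertain where reads could be split between them. Nudt6 itself passed in none of the 3 comparisons (edgeR adjusted p 0.282, 0.862 and 0.171).

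**Figure D3:**
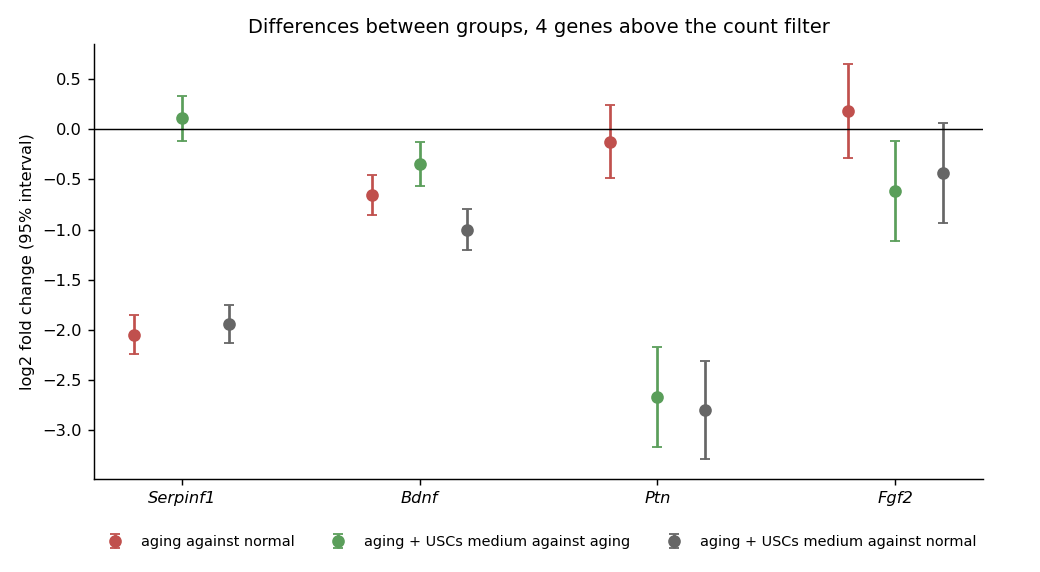
Log2 fold changes, on the y axis, of the 4 genes above the count filter in the 3 comparisons between groups, as points with 95% intervals from the edgeR fit; the line marks no difference. Serpinf1 (shown as a description) lies near -2 in both comparisons with normal RGCs, Ptn near -2.7 in both comparisons of the USCs medium group, and Bdnf below 0 in all 3.

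Among other FGF genes, 4 of 21 ligands and 4 of 9 receptors or cofactors were tested. Fgf1, which binds all FGF receptors, was at 15.3, 16.1 and 6.65 CPM and fell by 1.28 on the log2 scale between the USCs medium group and aging RGCs (edgeR adjusted p 4.57e-10). Fgf21, a stress-induced endocrine factor, fell by 3.71 between aging and normal RGCs (adjusted p 3.16e-13) and was 1.05 higher in the USCs medium group than in aging RGCs (adjusted p 0.00575). Fgfr1 was the most abundant receptor, at 43.9 FPKM, and its log2 fold changes were -0.23 (adjusted p 1.88e-05) and 0.12 (adjusted p 0.0153). Fgfr2 was at 0 in all libraries.

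Gdnf (ENSMUSG00000022144) lies on chromosome 15 from 7810846 to 7837575 and was measured at few counts. There were 2, 3 and 0 counts in normal RGCs, 7, 16 and 14 in aging RGCs, and 1, 6 and 4 in the USCs medium group. Every aging library stood above every library of the other groups. The exact two-sided permutation p was 0.1, the smallest possible, in both comparisons with aging RGCs, and 0.3 between the USCs medium group and normal RGCs. Gdnf was below the count filter. When the filter was left out, edgeR gave log2 fold changes of 2.94 ± 0.810 SE (adjusted p 0.00129) between aging and normal RGCs and -1.74 ± 0.714 SE (adjusted p 0.0376) between the USCs medium group and aging RGCs.

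The co-receptor gene Gfra1, like Gdnf, was highest in aging RGCs. Its counts were 8, 12 and 9 in normal RGCs, 20, 36 and 35 in aging RGCs, and 7, 11 and 10 in the USCs medium group, so that no aging library overlapped the others. Its exons share bases with Gm16277 on the other strand. The log2 fold change was 1.78 between aging and normal RGCs (edgeR adjusted p 0.000305) and -1.72 between the USCs medium group and aging RGCs (adjusted p 0.000394). Gfra2, the co-receptor that prefers neurturin, was at 3.71, 4.01 and 0.827 CPM, and fell by 2.27 between the USCs medium group and aging RGCs (adjusted p 1.56e-08). Ret, the kinase both need, had 1 count in 1 library and 0 in the other 8, and Gfra3, Gfra4 and Gfral were at 0. Ncam1, an adhesion molecule that can also bind GDNF with GFRα, was the most abundant of the receptor list at 8.54 FPKM, lower in aging than in normal RGCs (-0.29, adjusted p 0.00171) and higher in the USCs medium group than in aging RGCs (0.60, adjusted p 4.34e-08). Among the ligands, Gdf15, a stress-induced factor, fell from 24.8 ± 1.14 to 8.17 ± 0.223 CPM in aging RGCs and stood at 11.8 ± 1.06 CPM in the USCs medium group (SD, n = 3). Its log2 fold changes were -1.60 (edgeR adjusted p 2.48e-14) and 0.53 (adjusted p 5.22e-05). Artn, for artemin, was lower in aging than in normal RGCs (-1.56, adjusted p 0.0111) at 3 to 25 counts a library, and did not pass without normal replicate 2 (adjusted p 0.0943) or aging replicate 3 (adjusted p 0.0693).

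**Figure D4:**
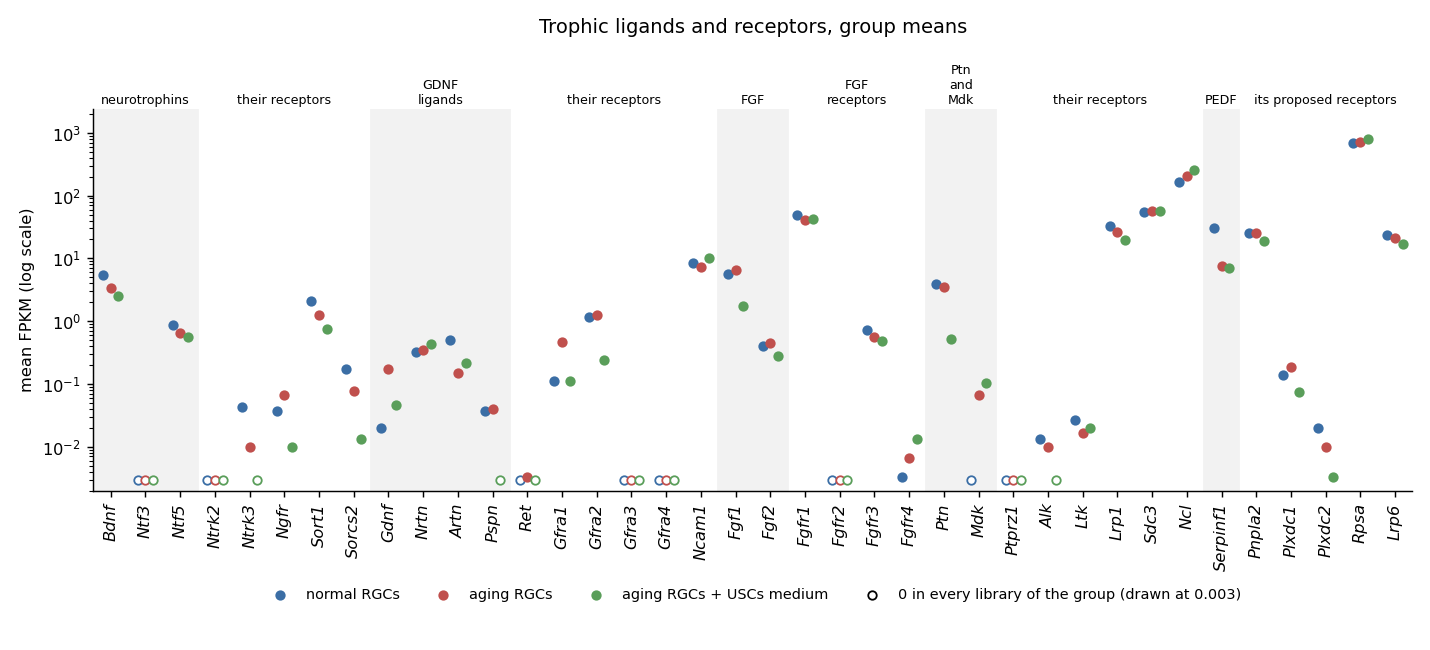
Mean FPKM of each group (3 libraries each), on a log y axis, for trophic ligands and for their receptors beside them; open points mark a gene at 0 in every library of the group. Ligands such as Bdnf, Ptn and Serpinf1 lie above 0.5 FPKM in all groups. The ligands Gdnf, Nrtn, Artn, Pspn, Fgf2 and Mdk lie below 0.5 FPKM in all groups, and Ntf3 is at 0. Among the receptors, Ntrk2, Gfra3, Gfra4, Fgfr2 and Ptprz1 are at 0, and Fgfr1, Lrp1, Ncl and Rpsa lie above 15 FPKM.

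Trophic genes beyond the 9 were gathered in 12 lists of ligands, receptors and adaptors, which hold 123 further genes of the table. Of these, 80 were tested and 18 were at 0 in every library. Between aging and normal RGCs, 5 passed as higher and 32 as lower (46.2% in all), with a median log2 fold change of -0.14. Between the USCs medium group and aging RGCs, 20 passed as higher and 28 as lower (60%), and without TMM scaling 15 and 32, with a median of -0.06. Against normal RGCs, 11 of the USCs medium group's list genes passed as higher and 38 as lower (61.3%), with a median of -0.22. The shares that passed were close to those of all genes given above, and more passed as lower than as higher in all 3 comparisons, under every scaling that was tried. Over all genes the split of higher and lower was 3292 and 3154 for the USCs medium group against aging RGCs and 3716 and 3634 against normal RGCs, and without TMM scaling 2346 and 4199, and 2593 and 4889. The median over all genes then moved from -0.0127 to -0.113 for the USCs medium group against normal RGCs. A wider set, the 149 genes annotated with growth factor activity, was chosen after values were seen. Of its 77 genes tested, 13 passed as higher and 20 as lower between aging and normal RGCs (42.9% in all). Between the USCs medium group and aging RGCs 16 and 22 passed (49.4%), and against normal RGCs 19 and 28 (61%). Over all genes, the shares higher and lower were 23.6% and 23.0%, 27.1% and 26.0%, and 30.6% and 29.9%.

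**Figure D5:**
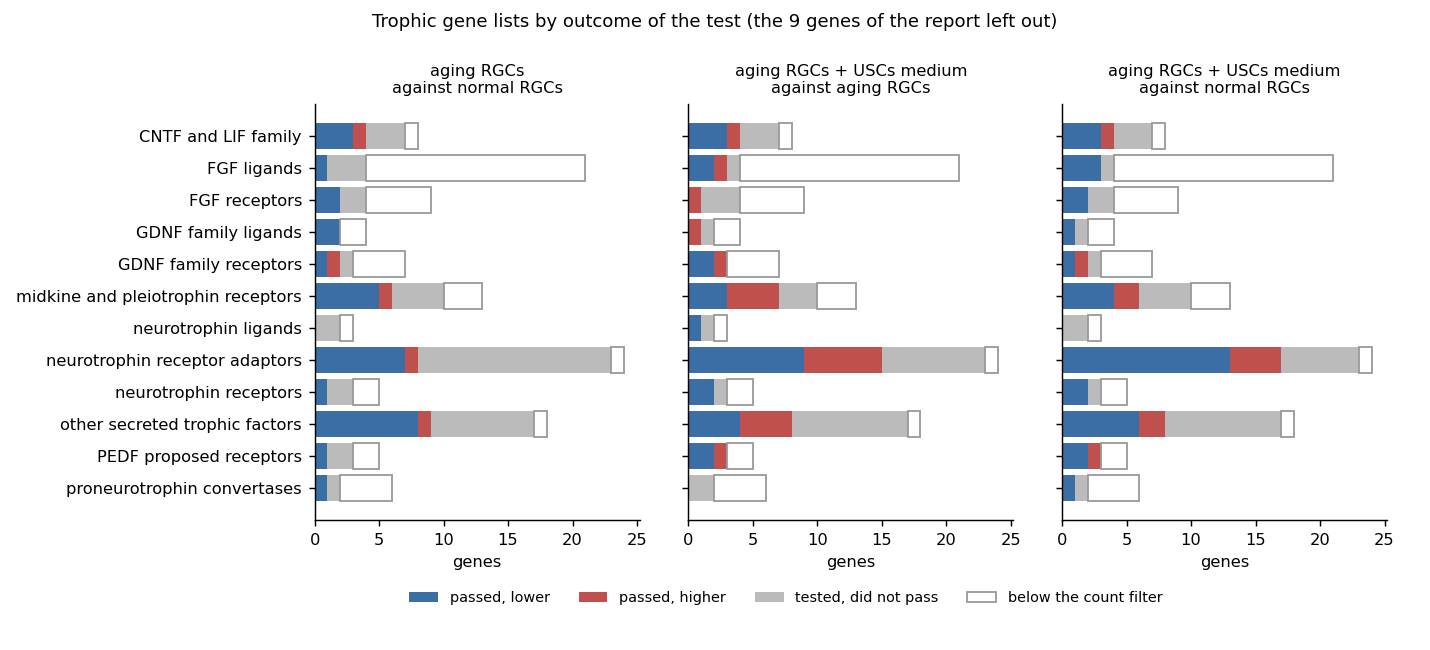
Bars count the genes of each trophic list (the 9 genes above left out) by outcome in the 3 comparisons, with genes on the x axis: passed as lower, passed as higher, tested but not passed, and below the count filter. Between aging and normal RGCs 32 of 80 genes tested are lower and 5 higher, beside 23.0% lower and 23.6% higher over all genes. Of 23 adaptors tested, 8 passed there (34.8%) and 17 between the USCs medium group and normal RGCs (73.9%). In that last comparison, 30.6% of all genes passed as higher and 29.9% as lower.

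In the CNTF and LIF family, 7 of 8 genes were tested. Lif, a cytokine that protects photoreceptors and neurons, rose by 0.52 on the log2 scale in aging RGCs (edgeR adjusted p 3.48e-05) and fell by 1.14 in the USCs medium group against aging RGCs (adjusted p 1.21e-10). Its receptor gene Lifr fell from 36.1 to 27.5 and 11.6 CPM, by 0.40 (adjusted p 5.06e-05) and then by 1.24 (adjusted p 8.66e-13). Il6st, for the shared receptor chain gp130, was the most abundant at 24.0 FPKM, lower in aging RGCs (-0.13, adjusted p 0.003) and higher in the USCs medium group against aging RGCs (0.34, adjusted p 3.33e-09).

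Of the other secreted trophic factors, 17 of 18 were tested, with 1 higher and 8 lower between aging and normal RGCs (52.9% in all). Between the USCs medium group and aging RGCs, 4 were higher and 4 lower (47.1%). Over all genes, the shares higher and lower were 23.6% and 23.0%, and 27.1% and 26.0%. Spp1, for osteopontin, was the most abundant at 660.8 FPKM and stood at 1329 ± 58.1, 902.1 ± 6.20 and 544.9 ± 14.5 CPM (SD, n = 3), a log2 fold change of -1.29 between the USCs medium group and normal RGCs (edgeR adjusted p 1.2e-22). Clu, for the extracellular chaperone clusterin, had the same order, with -1.12 (adjusted p 1.33e-19). Hgf, for hepatocyte growth factor, had 4 to 17 counts a library and was 1.25 higher in the USCs medium group than in aging RGCs (adjusted p 0.0446), a call lost with DESeq2 (adjusted p 0.0793), without TMM scaling (adjusted p 0.0591) and in 5 of the 9 fits that left out 1 library, with an adjusted p of up to 0.137 (without USCs medium replicate 2). Some exonic bases of Spp1 are shared with Gm42793, and some of Hgf with Gm43489, each on the same strand.

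Igf1 and Apoe were higher in USCs medium replicate 3 than in replicates 1 and 2, as was the sum of the macrophage markers. Of those markers, Cd68 and Cd14 did not pass between aging and normal RGCs (edgeR adjusted p 0.237 and 0.953). Within the aging libraries Igf1 was highest in replicate 1, where Apoe had its fewest counts. The macrophage markers without Cd68 also summed highest there, at 22.9 CPM against 14.9 and 16.4 CPM in replicates 2 and 3. Among single markers, Lyz2 was highest in that replicate, whereas Tyrobp, Cd68 and Cd14 were not. Igf1, for insulin-like growth factor 1, had 20, 15 and 24 counts in normal RGCs, 5, 1 and 0 in aging RGCs, and 0, 2 and 23 in the USCs medium group. It was lower in aging than in normal RGCs (log2 fold change -3.07, edgeR adjusted p 0.0037), but not with DESeq2 (adjusted p 0.116). The log2 fold change was -4.88 without aging replicate 1 and -2.50 without aging replicate 3. Apoe, for the lipid carrier apolipoprotein E, had 194, 103 and 120 counts, then 40, 51 and 51, then 31, 29 and 118. Between the USCs medium group and normal RGCs its log2 fold change was -1.10 (edgeR adjusted p 0.00238), and without USCs medium replicate 3 it was -2.09 (adjusted p 7.9e-08). The part of macrophage RNA in these levels was not tested.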

How the data were processed

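The authors deposited 1 table of genes with, for each library, an expected (estimated) count and an FPKM value. Per the labels, total RNA was extracted with Trizol and mRNA enriched with oligo(dT), and the build was mm10. Aligner and counter were not given in the sources used here. In each library, 6.92 to 7.38% of genes had counts that were not whole, and the deposited expected counts were rounded. FPKM, which the authors scaled to length and depth, was used to compare genes. Counts were fitted with edgeR 4.0.16 in R 4.3.3 (TMM factors, filterByExpr, glmQLFit and glmQLFTest) over all 9 libraries with 1 mean per group, with Benjamini-Hochberg adjustment of p-values across the 12145 genes tested. CPM used TMM-scaled library sizes, and the SE is the log2 fold change over the square root of F. The script was tested on simulated data. Genes below the count filter were compared with exact two-sided permutation tests on CPM.

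The members, lists and rules were chosen with earlier results of these data known. The named genes were the 9 members, and, from each list and comparison, up to 4 DEGs by log2 fold change and the gene with the highest mean FPKM. Other genes of the lists, such as Lrp1, Pnpla2, Lrp6 and those at 0, and the pathway genes Camk2a, Shc4 and Bcl2 were named after their values were seen, and some genes that the rule names are not reported here. The 5 genes most like Serpinf1 had an average log2 CPM of at least 1. Same-numbered libraries did not deviate together (correlations of -0.0368 to 0.0479), so numbers were not used as pairs. Replicate libraries differed by more than counting noise (chi-square per gene 2.28 to 4.93), and each was counted as 1 sample. Gene positions came from GENCODE M21 (GRCm38), in which 22267 of 22322 gene IDs were found, and promoter sequences from RefSeq. Shared exonic bases are given for some genes only, and others, such as Sort1, Furin, Rpsa, Ncl, Itga4 and Ncam1, have them too. Alternatives were DESeq2 1.42.0, other scaling and filters, limma 3.58.1 on log2(FPKM + 1) and log2(FPKM + 0.1), a fit of the 2 groups alone, a replicate block, and leaving out each library.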

Additional observations from a re-analysis of the deposited data

How the results depend on the processing

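Low counts limit 5 of the 9 genes: at these depths Ntrk2, Ntrk3, Ngfr, Mdk and Gdnf were read from 0 to 16 counts a library. The number of members that passed stayed within 1.5 times of that reported under every alternative run, except between the USCs medium group and aging RGCs, where it ranged from 1 to 4 when 1 library was left out, with 1 without USCs medium replicate 1; the ranges were 2 to 3 between aging and normal RGCs and 3 to 4 between the USCs medium group and normal RGCs. The Serpinf1 log2 fold change between the USCs medium group and aging RGCs turned to -0.080 in limma with FPKM + 1 and to -0.088 with FPKM + 0.1, and that of Ptn between aging and normal RGCs ranged from -0.32 to 0.030 when 1 library was left out, above 0 without normal replicate 1; the cause was not tested. Fgf2 passed between the USCs medium group and normal RGCs only without normal replicate 2 (adjusted p 0.0459, edgeR). The fit with a replicate block changed no count of members, which remained at 2, 3 and 3, and moved the genes passing from 5649 to 5640, from 6446 to 6432 and from 7350 to 7323. Among named genes, 30 values in all lost their call under an alternative, and they are those of Fgf2, Bdnf, Hgf, Igf1, Itgb1, Itga4, Artn, Apoe and Sorcs2; Sorcs2 (adjusted p 0.255 and 0.065) and Itga4 (0.0704 and 0.0663) lost theirs in limma on FPKM, and Apoe in the USCs medium group against normal RGCs with DESeq2 (0.0967).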
